A study of Mus musculus with 6 samples.

Results

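The genes described here are the splicing and RNA-binding factors of the mouse liver table whose symbols start with Snrp, Lsm and a digit, Sf3, Srsf, Hnrnp, Prpf, U2af or Ddx. A total of 25 of the 3542 genes in the deposited table carried such a name, and 0 names were left out as pseudogene or opposite-strand names. They were 5 Snrp, 5 Lsm, 5 Hnrnp, 4 Prpf, 2 Sf3 and 2 Ddx genes, with 1 Srsf and 1 U2af gene. GENCODE M21 holds 118 protein-coding mouse genes with these prefixes, and 23 of them were among the 25. The liver RNA came from 3 wild-type mice, Mul1(+/+), and 3 mice with whole-body loss of Mul1, Mul1(−/−). Mul1 codes for an E3 ubiquitin ligase of the outer mitochondrial membrane. All 6 mice were put on a high-fat diet (HFD) at 8 weeks of age and kept on it for 16 weeks, so both groups share the diet, and the sex of each animal was not given in the sources used here. The null animals came from heterozygous breeding, and whole liver tissue was sequenced for mRNA, although the labels name hepatocytes as the cell type. The question put to the libraries was which liver genes change when Mul1 is lost on this diet.

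Splicing removes introns from a pre-mRNA in the spliceosome, which is built from small nuclear ribonucleoproteins (snRNPs). In each of U1, U2, U4 and U5 a ring of Sm proteins, the products of Snrp genes, sits on the small nuclear RNA, and U6 carries a ring of Lsm proteins instead. A related Lsm ring in the cytoplasm, with Lsm1 in place of Lsm8, binds the ends of shortened mRNAs and promotes decapping. Sf3 proteins belong to the U2 snRNP, Prpf proteins to U1, U5 and the tri-snRNP, and SR proteins (Srsf) and hnRNPs (Hnrnp) bind the transcript and steer the choice of splice site. Ddx genes code for RNA helicases with roles from splicing to ribosome assembly and antiviral sensing.

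The table is itself a selection. The authors kept genes that passed their own test on these 6 libraries, so the presence of a gene in it, and its difference between the groups, are not independent evidence, and factors outside it were not analysed here. The p-values below were computed within this selection, so they do not carry their usual error rates. The values are read counts divided by a factor for each library, called normalized counts below. The reads on the table's genes numbered from 11932163 to 15385822 per library, which is part of each library. Mul1 itself, the check of the labels, had normalized counts of 3172, 3232 and 3423 in Mul1(+/+) HFD-liver and 1037, 965 and 1753 in Mul1(−/−) HFD-liver. The Mul1(−/−) libraries kept 31.7%, 29.5% and 53.5% of the wild-type mean, so reads on the gene were lower in all 3 but far from absent, and replicate 3 kept the most. Which part of the gene was removed is not given in the sources used here, and the libraries are called null below by their label. Markers of liver cell types also differed between the groups. Of the hepatocyte markers, Trf and Tat (2 of 8 listed) were in the table and summed to 217175 to 269704 in Mul1(+/+) and to 95778 to 118377 in Mul1(−/−). The 4 bile duct markers of 5 listed summed to 1292 to 1891 against 4878 to 5100, the 2 stellate cell markers of 6 to 4314 to 5241 against 8482 to 28580, and the 2 endothelial markers of 6 to 3352 to 3910 against 1184 to 2140. Most of the bile duct sum was Spp1, with 3336, 4304 and 4613 in null replicates 1, 2 and 3. The other bile duct markers were instead highest in null replicate 1: Krt19 had 1151, 176 and 147, Krt7 251, 130 and 94.85, and Epcam 361, 268 and 204. Ptprc, a gene of leukocytes in general, was the only 1 in the table of 6 genes listed as lymphocyte markers. It ranged from 273 to 503 against 688 to 1444, which does not tell lymphocytes from other leukocytes. Of the 8 Kupffer cell markers, 0 were in the table. In whole tissue, fewer cells of a type and less RNA per cell cannot be told apart, and the part of these shifts in the values below was not tested.

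Of the 25 factors, 16 were higher and 9 lower in mean in Mul1(−/−) HFD-liver. The median log2 fold change was 1.10 over the 25 factors and 1.12 over the 3542 genes, of which 2012 were higher and 1530 lower. Log2 fold changes are given on the log2(normalized count + 1) scale, Mul1(−/−) over Mul1(+/+), with the standard error (SE) of the limma fit over the whole table. Past the threshold (adjusted p under 0.01 with a log2 fold change beyond 1 in size), 2 factors, Snrpg and Lsm7, were higher, against 16.7% of the table in that direction. None of the 25 fell past it (0, against 7.43% of the table). All 9 lower factors had an unadjusted and an adjusted p under 0.05 in limma, and 96.3% of the table had such an adjusted p. Limma-trend called 5 of the 25 lower, against 25.6% of the table. The 3 libraries of each genotype did not overlap for 22 of the 25 factors, against 90.3% of the table, and 22 had an adjusted p under 0.05, against 96.3%. A share close to that of the table is not a result about the factors. For any single gene, 3 mice against 3 allow no p below 0.1 in a two-sided exact permutation test. The count of calls rested on single libraries. Without Mul1(−/−) replicate 3, 12 factors were called higher and 4 lower, with 1595 (45.0%) and 1078 (30.4%) of the 3542 table genes called in the same setting. Without Mul1(−/−) replicate 2 or any 1 of the 3 Mul1(+/+) libraries, 0 were called in either direction by limma. Calls over the table fell as well in these settings, to between 9 and 31 genes higher and between 1 and 15 lower. Of the 25 factors, 14 to 21 had an unadjusted p under 0.05 there. The count of calls also moved with scaling. Rescaling by the median ratio of the table's genes, which shifts the median log2 fold change of all genes by −0.66, left 1 factor called higher and 6 called lower, and the calls over the table went from 591 higher and 263 lower to 236 higher and 1031 lower. The direction of each of the 25 factors held in every setting tried.

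**Figure D1:**
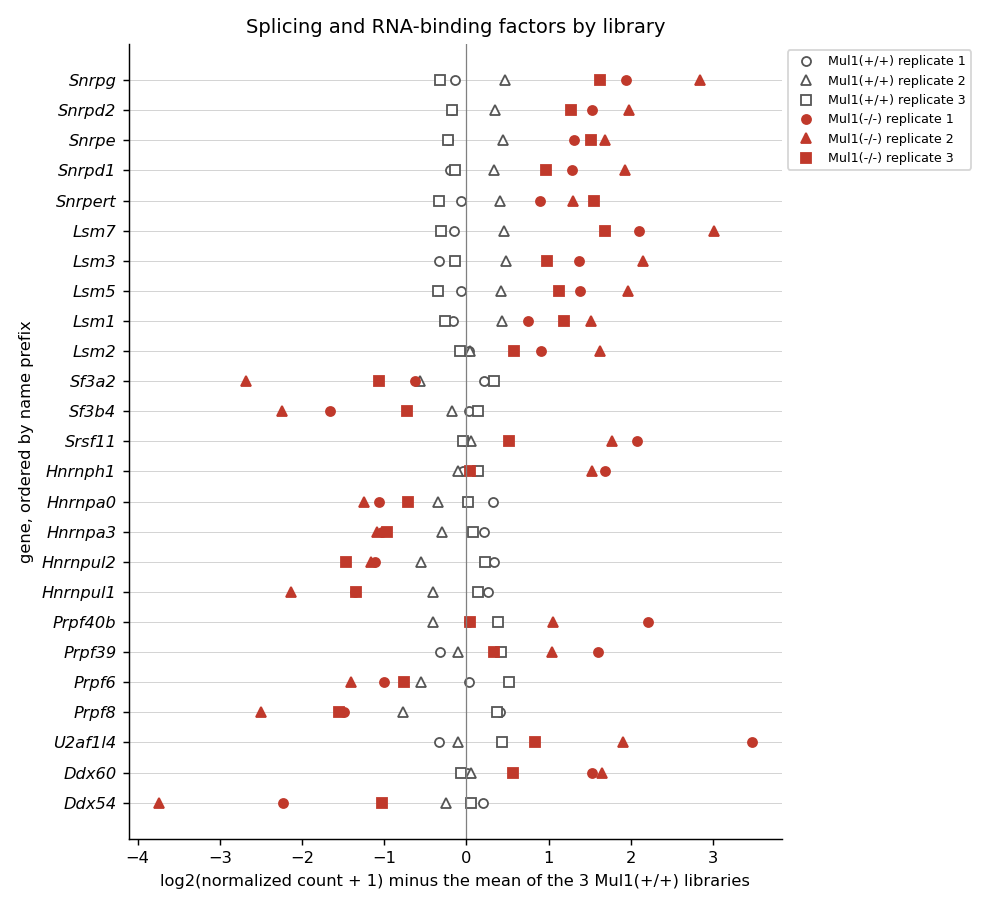
Each row is a gene, and each symbol a library: open grey for Mul1(+/+), filled red for Mul1(−/−), with circles, triangles and squares for replicates 1, 2 and 3. The horizontal axis is log2(normalized count + 1) minus the mean of the 3 Mul1(+/+) libraries. The 10 Snrp and Lsm genes lie to the right with no overlap, and the squares of Hnrnph1, Prpf40b and Prpf39 lie among the open symbols.

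All 5 Snrp genes were higher in Mul1(−/−) HFD-liver, by 2.39-fold to 4.58-fold in mean, with 1 of them past the threshold. The genes of 4 of the 7 Sm ring proteins were in the table, Snrpd1, Snrpd2, Snrpe and Snrpg, and all 4 were higher. Snrpg codes for the ring protein SmG. In the order of replicates 1, 2 and 3, it had 455, 695 and 403 normalized counts in Mul1(+/+) and 1938, 3620 and 1560 in Mul1(−/−), and the same order is kept for every gene below. The lowest null library stood above the highest wild-type library, and replicate 2 was the highest of its group in both genotypes. The means of 518 ± 156 and 2372 ± 1097 (SD, n = 3) gave a log2 fold change of 2.14 (SE 0.45, limma adjusted p = 0.00755), past the threshold. The call was lost under the median ratio scaling (limma adjusted p = 0.0108) and, for both Snrpg and Lsm7, without any wild-type library or without null replicate 2, with limma adjusted p from 0.0240 to 0.0303.

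Snrpd2, which codes for SmD2, had 1279, 1826 and 1276 normalized counts in Mul1(+/+) and 4161, 5691 and 3468 in Mul1(−/−), and the groups were apart. Its log2 fold change of 1.59 (SE 0.40, limma adjusted p = 0.0101) fell just short of the threshold. Snrpe, which codes for SmE, had 505, 800 and 503 in Mul1(+/+) and 1460, 1901 and 1678 in Mul1(−/−). Here the null libraries differed less among themselves than those of Snrpg did, and the log2 fold change was 1.50 (SE 0.39, limma adjusted p = 0.0111). Snrpd1, the gene of SmD1, had a log2 fold change of 1.40.

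The remaining Snrp name, Snrpert, is annotated in GENCODE M21 as a processed pseudogene on chromosome 2, a copy of Snrpe without introns. Its log2 fold change was 1.25, from a mean of 57.2 ± 15.6 normalized counts in Mul1(+/+) to 137 ± 30.4 in Mul1(−/−). Reads of a processed copy and of its parent gene can be hard to assign, so the value of Snrpert is uncertain, and it was not counted as an additional Sm protein.

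All 5 Lsm genes were higher as well, by 2.15-fold to 5.05-fold, again with 1 past the threshold. They cover 4 of the 7 proteins of the nuclear ring on U6 (Lsm2, Lsm3, Lsm5 and Lsm7) and 5 of the 7 of the cytoplasmic decapping ring, which adds Lsm1. Lsm7 had 442, 676 and 397 normalized counts in Mul1(+/+) and 2103, 3961 and 1586 in Mul1(−/−). The order of the 6 libraries was the same as for Snrpg, and the groups did not overlap. The means of 505 ± 150 and 2550 ± 1249 (SD, n = 3) gave a log2 fold change of 2.26 (SE 0.46, limma adjusted p = 0.00701), past the threshold.

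Lsm3 had 177, 313 and 203 normalized counts in Mul1(+/+) and 580, 997 and 443 in Mul1(−/−), a log2 fold change of 1.50 (SE 0.45, limma adjusted p = 0.0150). Lsm5 had 181, 254 and 149 in Mul1(+/+) and 498, 747 and 416 in Mul1(−/−), also with a log2 fold change of 1.50 (SE 0.42, limma adjusted p = 0.0129). Neither passed the threshold, although every null library stood above every wild-type library for both. Lsm1, the subunit found in the cytoplasmic ring, had a log2 fold change of 1.15, and Lsm2, shared by both rings, had 1.04. An annotated transcript of the same strand, AC161456.1, overlaps Lsm3.

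Added over their genes, the Snrp values came to 2644, 3906 and 2592 normalized counts in Mul1(+/+) and to 8649, 12897 and 7666 in Mul1(−/−). The Lsm values came to 1800, 2538 and 1683 in Mul1(+/+) and to 5048, 8834 and 4530 in Mul1(−/−). In both sums the wild-type libraries lay close together apart from replicate 2, which was the highest, and null replicate 2 was again the highest of all. The partners of the cytoplasmic ring that were in the table went the other way in mean. Patl1, a scaffold that joins the ring to the decapping enzyme, had 898, 593 and 831 normalized counts in Mul1(+/+) and 443, 255 and 354 in Mul1(−/−), a log2 fold change of −1.15 (SE 0.41, limma adjusted p = 0.0233), and Dcp2, the decapping enzyme, had −1.14. Neither passed the threshold.

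Both Sf3 genes were lower in mean. Sf3a2, 1 of 3 SF3a proteins and 1 that helps bind the U2 snRNP to the branch site, had 1006, 586 and 1095 normalized counts in Mul1(+/+) and 560, 133 and 414 in Mul1(−/−). The highest null library lay only slightly under wild-type replicate 2, and the log2 fold change was −1.46 (SE 0.56, limma adjusted p = 0.0303). Sf3b4, 1 of 7 SF3b proteins and a binder of the pre-mRNA beside the branch site, had 761, 655 and 822 in Mul1(+/+) and 234, 156 and 449 in Mul1(−/−). Its log2 fold change was −1.55 (SE 0.46, limma adjusted p = 0.0148), with no overlap of the groups. Both genes overlap a gene on the opposite strand in GENCODE M21 (Plekhj1 and Gm17690), and whether counting used strand is not given in the sources used here, so the part of the antisense partners was not tested.

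The U2af row stood apart from the other rows in level and in identity. The table calls it U2af1l4, a relative of the U2 auxiliary factor subunit that reads the 3′ splice site, but its identifier is that of Gm49396 in GENCODE M21, a gene that overlaps U2af1l4 and Igflr1 on the same strand and Psenen on the other. Its normalized counts were 13.5, 15.9 and 23.7 in Mul1(+/+) and 202, 67.4 and 31.6 in Mul1(−/−), which rest on 16, 18 and 29 reads and on 138, 55 and 36 reads. The null libraries were spread over a wide range, with replicate 3 near the wild type. The log2 fold change was 2.07 (SE 0.62, limma adjusted p = 0.0148), and which of the overlapping genes gave the reads cannot be told.

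Srsf11 was the only SR protein gene with this prefix in the table. It codes for an SR-like splicing factor. Its values were 1428, 1496 and 1408 normalized counts in Mul1(+/+) and 6106, 4923 and 2062 in Mul1(−/−). The wild-type libraries were almost level, whereas the null libraries ran from just above them to several times as high, with replicate 1 on top. The log2 fold change was 1.45 (SE 0.47, limma adjusted p = 0.0187).

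Of the 5 hnRNP genes, 4 were lower in mean and Hnrnph1 was higher, and 0 passed the limma threshold in either direction. In limma 4 had an unadjusted and an adjusted p under 0.05, and 96.3% of the table had such an adjusted p. Limma-trend called 2 lower, against 25.6% of the table. Hnrnpul1, a nuclear RNA-binding protein with a role in the DNA damage response, had 4424, 2798 and 4094 normalized counts in Mul1(+/+) and 1448, 843 and 1455 in Mul1(−/−). Its log2 fold change was −1.61 (SE 0.42, limma adjusted p = 0.0109), just short of the threshold. Hnrnpul2, its close relative, had 7062, 3804 and 6531 in Mul1(+/+) and 2595, 2496 and 2024 in Mul1(−/−), a log2 fold change of −1.25 (SE 0.41, limma adjusted p = 0.0193). For both, wild-type replicate 2 was the closest to the null group, and no library crossed over. An annotated gene of the same strand, AC129217.1, overlaps Hnrnpul2. Hnrnpa0 and Hnrnpa3, of the family that binds exon silencers and AU-rich RNA, had log2 fold changes of −1.01 and −1.03.

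Hnrnph1, which binds runs of G in pre-mRNA, behaved otherwise. Its normalized counts were 1960, 1877 and 2227 in Mul1(+/+) and 6512, 5801 and 2074 in Mul1(−/−). Null replicates 1 and 2 lay far above the wild type while replicate 3 lay inside its range, and the log2 fold change of 1.09 (SE 0.49) had an adjusted p of 0.0528 in limma. Without null replicate 3 the gene was called higher.

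**Figure D2:**
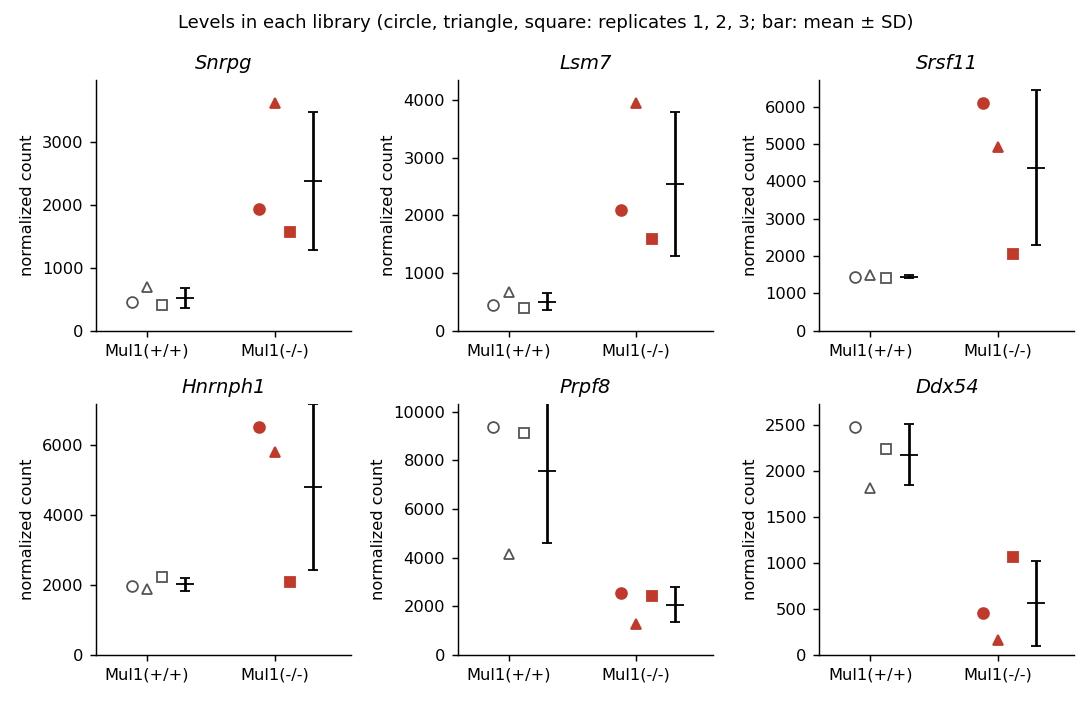
Normalized counts (linear axes from 0) of 6 factors in each library, with circles, triangles and squares for replicates 1, 2 and 3 and the bar beside them for mean ± SD (n = 3). In Snrpg and Lsm7 the triangle is the highest null library, whereas in Srsf11 and Hnrnph1 the circle is the highest and the square lies near or within the Mul1(+/+) values. Prpf8 and Ddx54 have every null library under every wild-type library.

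Of the 4 Prpf genes, 2 were higher and 2 lower in mean, and 0 passed the limma threshold. In limma 2 had an unadjusted and an adjusted p under 0.05, and 96.3% of the table had such an adjusted p. Limma-trend called 1 lower, against 25.6% of the table. Prpf8, the large protein at the catalytic heart of the U5 snRNP, had 9375, 4145 and 9124 normalized counts in Mul1(+/+) and 2529, 1255 and 2424 in Mul1(−/−). Replicate 2 was the lowest library in both groups, and the log2 fold change was −1.84 (SE 0.48, limma adjusted p = 0.0111). Prpf6, which bridges U5 and U4/U6 in the tri-snRNP, had 2649, 1774 and 3730 in Mul1(+/+) and 1299, 985 and 1539 in Mul1(−/−), a log2 fold change of −1.05 (SE 0.43, limma adjusted p = 0.0360). Prpf8 and Prpf6 were thus lower in mean while the Sm genes, whose proteins also sit in U5, were higher. The tri-snRNP genes in the table did not share a direction, since Snrnp27, another of them, had a log2 fold change of 1.87. Prpf8, Prpf6 and Snrnp27 did not pass the threshold, and the libraries do not measure protein.

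The Prpf genes linked to U1 were higher in mean. Prpf40b, a U1-associated protein, had 376, 278 and 481 normalized counts in Mul1(+/+) and 1708, 765 and 379 in Mul1(−/−), a log2 fold change of 1.10 (SE 0.55, limma adjusted p = 0.0754). Null replicate 3 was level with wild-type replicate 1, and null replicate 1 was the highest by far. Prpf39, which also works with U1, had a log2 fold change of 0.99, with the same overlap of the groups. Fkbp3 overlaps Prpf39 on the opposite strand.

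The helicases Ddx54 and Ddx60 went in opposite directions in mean. Ddx54, a nucleolar helicase of ribosome assembly, had 2480, 1815 and 2244 normalized counts in Mul1(+/+) and 459, 160 and 1064 in Mul1(−/−). It had the most negative log2 fold change of the 25, −2.33 (SE 0.62, limma adjusted p = 0.0112), and the null libraries were spread widely below the wild type. Cfap73 and Gm43579 overlap it on the opposite strand. Ddx60, an interferon-inducible helicase of the antiviral response, had 242, 250 and 229 in Mul1(+/+) and 696, 754 and 356 in Mul1(−/−), a log2 fold change of 1.25 (SE 0.42, limma adjusted p = 0.0209).

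The factors that were higher did not share a single order of the null libraries. Over the 10 Snrp and Lsm genes, the median difference from the Mul1(+/+) mean was 1.34, 1.95 and 1.23 on the log2 scale in null replicates 1, 2 and 3, and replicate 2 was the highest null library for 9 of 10. Over the 6 other higher factors (Srsf11, Hnrnph1, Prpf39, Prpf40b, U2af1l4 and Ddx60) the medians were 1.89, 1.59 and 0.42. Replicate 1 was the highest for 5 of those 6, with Ddx60 as the exception, and replicate 3 was the nearest to the wild type for 6 of 6. Among all higher genes of the table, replicate 1 was the highest for 38.3% and replicate 2 for 53.1%, and replicate 3 was the nearest to the wild type for 71.7%. The difference between these small sets was not tested, and the split between them was made after the values had been seen.

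In the lower factors null replicate 2 was mostly the farthest from the wild type, as in the Snrp and Lsm genes. Null replicate 2 was the lowest library for 8 of the 9, against 73.3% of the lower genes of the table, with medians of −1.11, −2.13 and −1.02 in replicates 1 to 3. Wild-type replicate 2 was the nearest to the null group for 9 of 9 lower factors and for 10 of 10 Snrp and Lsm genes, against 62.7% of the whole table. Over all 25 factors it was the nearest for 21.

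Values of other classes of RNA are given beside these. The 632 higher non-coding genes of the table had medians of 2.63, 2.41 and 1.20 in null replicates 1 to 3, and the 27 genes of the mitochondrial genome had 2.89, 1.71 and 0.31. Non-coding here means any gene annotated as other than protein-coding, which includes pseudogenes such as Snrpert. The nuclear RNA Malat1 had 4.48, 3.06 and 0.92, and Neat1, the RNA of paraspeckles, had 4.02, 3.25 and 1.15. Replicate 1 was the highest for 27 of the 27 mitochondrial genes, for Malat1 and for Neat1, as for Srsf11, Hnrnph1, Prpf39, Prpf40b and U2af1l4. Of the 632 non-coding genes it was the highest for 51.3% and replicate 2 for 43.5%. Their part in those values was not tested.

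**Figure D3:**
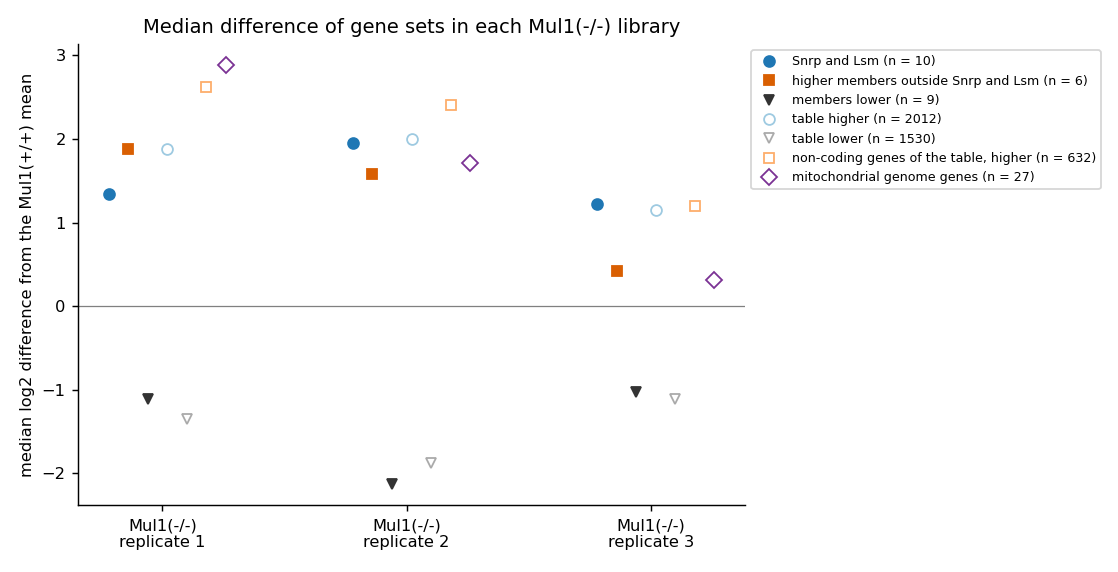
Median log2 difference from the Mul1(+/+) mean (vertical axis) of 7 gene sets in each of the 3 null libraries (horizontal axis, which has no order). Filled symbols are the factors and open symbols are sets drawn from the whole table. The higher and lower table sets include the factors, and the non-coding set includes Snrpert. The 10 Snrp and Lsm genes keep medians of 1.23 or more in all 3 libraries, while the 6 other higher factors drop to 0.42 in replicate 3.

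The sets also differed in gene structure, which the names did not use. The 9 protein-coding Snrp and Lsm genes had a median transcript length of 798.5 nucleotides (416 to 1503) and a median of 4 exons, taking for each gene the median over its annotated transcripts. The 9 lower factors had a median of 3048 nucleotides (781 to 7249) and 14 exons, and the 6 other higher factors 2313 nucleotides and 13 exons. Across the protein-coding genes of the table the higher ones had a median of 1369 nucleotides and the lower ones 3007. Of the 996 table genes within the length range of the Snrp and Lsm genes, 72.9% were higher. Of the 2363 within the range of the lower factors, 43.3% were higher, and of the 1211 within the range of the other higher factors, 38.2%. Length thus moved with direction across the table, and its part in the values of the factors was not tested. Within the families the order was not uniform: Sf3a2, with 781 nucleotides, and Hnrnpa3, with 1397, were lower in mean with short transcripts, Hnrnph1, with 2225, was higher, and Ddx60, with 4054.5, was higher.

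**Figure D4:**
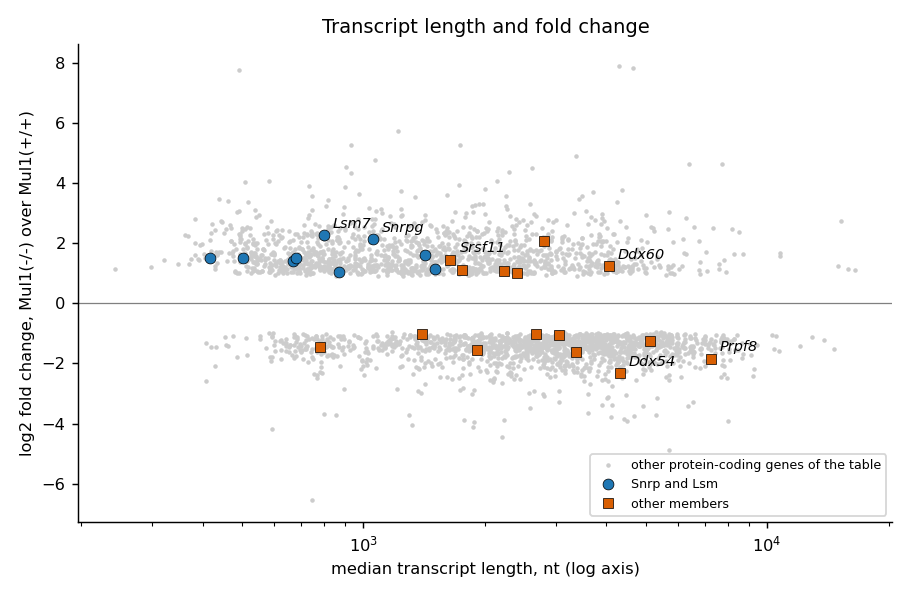
Each point is a protein-coding gene of the table, with its median transcript length in nucleotides on a log axis and its log2 fold change on the vertical axis. Blue circles are Snrp and Lsm genes, all at 1503 nucleotides or less and above 0, orange squares the other factors, and grey points the rest of the table. No points lie near 0 because the table holds genes chosen for their fold change.

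The number of annotated transcripts with a retained intron varied among the 6 other higher factors. Srsf11 had 11 of them among 19 transcripts in GENCODE M21, Prpf39 had 6 of 10 and Prpf40b 6 of 15, whereas Ddx60 had 2 of 6, U2af1l4 1 of 4 and Hnrnph1 0 of 18. The median was 4 over the 6 other higher factors, and 1 over the Snrp and Lsm genes, the lower factors and the protein-coding genes of the table alike, and no test was made on these few genes. Among the table's higher protein-coding genes with null replicate 1 on top, 30.0% of 443 had 3 or more such transcripts, against 16.3% of 790 with replicate 2 on top. The 443 genes were also longer, with medians of 1949 nucleotides and 8 exons against 1091 and 5. The part of length in this difference was not tested. The counts are per gene, so the values do not tell spliced from intron-holding transcripts.

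Levels can be set beside each other between genes only per length. Per kilobase of median transcript, Hnrnpa3 was the most abundant factor in Mul1(+/+) HFD-liver with 8159 ± 1417 normalized counts (SD, n = 3), and it had 3965 ± 168 in Mul1(−/−). The next wild-type levels, Hnrnpa0 with 1606 ± 369 and Snrpe with 1198 ± 339, differed by about their SDs, and Snrpe, Sf3a2, Hnrnpul2, Hnrnpul1, Prpf8 and Snrpd2 lay between 1028 and 1198 and cannot be ranked. In Mul1(−/−) HFD-liver Snrpe with 3339 ± 438, Lsm7 with 3193 ± 1564 and Snrpd2 with 3127 ± 801 came next in mean and cannot be ranked. In null replicate 2, Lsm7 with 4960 and Snrpd2 with 4008 stood above Hnrnpa3 with 3796. The median per kilobase of the Snrp and Lsm genes went from 489 to 1493, and that of the 9 lower factors from 1125 to 418. U2af1l4 was the lowest in both groups, with 6.31 ± 1.90 and 35.7 ± 32.0.

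Promoters from RefSeq (GRCm38.p6), 250 bases before to 50 after the start site, were found by symbol for 20 of the 25 factors, as 28 promoters. Their median GC content was 60.7%, against 52.7% over all 32851 promoters. The motifs searched on both strands were CCGGAAG, the site of ETS family factors, then GGGCGG, the GC box, then CCAAT, the CCAAT box, and TATAAA, the TATA box. The ETS motif was held by 28.6% of the 28 promoters against 8.86% of all, in 4 of 13 higher and 3 of 7 lower factors. The GC box was held by 78.6% against 35.7%, in 9 of 13 higher and 6 of 7 lower factors, and the CCAAT box by 46.4% against 37.4%. The TATA box was found in 1 promoter, that of Ddx60, or 3.57% against 13.6% of all. The ETS motif, the GC box and the CCAAT box were each held by factors of both directions. A match is a string of letters and not a measured site.

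The promoters of Snrpg and Lsm7, the factors past the threshold, are shown with that of Srsf11, from the higher factors with replicate 1 on top, and that of Prpf8, a lower factor. Capitals mark the ETS, GC box and CCAAT box letters on either strand, and each line runs 5′ to 3′ along its gene's strand. Snrpg is at chr6:86371290-86371589 (plus strand), Lsm7 at chr10:80855160-80855459 (minus strand), Srsf11 at chr3:158036557-158036856 (minus strand) and Prpf8 at chr11:75486527-75486826 (plus strand), all in GRCm38.p6. Each window spans the gene's start, with the upstream flank and the first bases of the transcript.
Snrpg: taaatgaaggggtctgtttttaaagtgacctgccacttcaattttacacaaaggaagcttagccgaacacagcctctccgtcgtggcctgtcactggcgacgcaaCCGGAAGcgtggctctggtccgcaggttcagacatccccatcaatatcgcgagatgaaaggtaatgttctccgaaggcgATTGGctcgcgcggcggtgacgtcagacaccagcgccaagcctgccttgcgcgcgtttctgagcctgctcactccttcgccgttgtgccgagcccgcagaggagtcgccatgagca
Lsm7: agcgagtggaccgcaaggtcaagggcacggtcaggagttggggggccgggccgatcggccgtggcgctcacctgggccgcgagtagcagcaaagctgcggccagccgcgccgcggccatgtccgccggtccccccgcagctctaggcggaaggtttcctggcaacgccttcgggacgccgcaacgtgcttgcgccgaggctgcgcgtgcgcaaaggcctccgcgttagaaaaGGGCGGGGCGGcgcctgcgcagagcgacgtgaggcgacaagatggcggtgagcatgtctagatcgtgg
Srsf11: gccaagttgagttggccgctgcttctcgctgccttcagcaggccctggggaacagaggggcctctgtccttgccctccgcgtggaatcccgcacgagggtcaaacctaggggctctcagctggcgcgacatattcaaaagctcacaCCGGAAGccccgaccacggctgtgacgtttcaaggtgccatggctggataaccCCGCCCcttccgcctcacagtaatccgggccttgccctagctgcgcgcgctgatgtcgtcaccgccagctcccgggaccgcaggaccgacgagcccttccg
Prpf8: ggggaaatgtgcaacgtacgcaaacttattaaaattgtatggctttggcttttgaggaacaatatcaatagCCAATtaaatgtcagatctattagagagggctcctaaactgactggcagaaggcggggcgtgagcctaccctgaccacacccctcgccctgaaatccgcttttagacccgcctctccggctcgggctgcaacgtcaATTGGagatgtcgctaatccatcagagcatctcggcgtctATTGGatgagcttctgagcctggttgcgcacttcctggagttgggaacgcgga
Snrpg held 1 ETS motif and 1 CCAAT box, and Lsm7 held 2 overlapping GC boxes and neither of the other motifs. Srsf11 held 1 ETS motif and 1 GC box, and Prpf8 held 3 CCAAT boxes. The GC content was 57.3%, 70.3%, 65.0% and 51.3% in that order. Snrpg and Lsm7 shared none of these motifs in these windows.

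Of 185 other splicing and RNA-processing genes on a list drawn up for comparison, 29 had a row in the table, with 23 higher and 6 lower in mean. The median log2 fold change was 1.17, against 1.12 over the table, and 1 gene was called higher and 0 lower by limma, against 16.7% and 7.43% of the table, with 23 at an adjusted p under 0.05. That gene was Tia1, which binds U-rich stretches after 5′ splice sites and gathers in stress granules. It had 169, 202 and 140 normalized counts in Mul1(+/+) and 903, 1155 and 400 in Mul1(−/−), a log2 fold change of 2.14 (SE 0.47, limma adjusted p = 0.00796). The groups were apart, and null replicate 3 was the lowest of its group.

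Snrnp27, a protein of the tri-snRNP, had 512, 664 and 454 normalized counts in Mul1(+/+) and 2176, 3250 and 1069 in Mul1(−/−), a log2 fold change of 1.87. Clk1, a kinase that phosphorylates SR proteins, had 1333, 1848 and 1112 in Mul1(+/+) and 7322, 7760 and 2048 in Mul1(−/−), a log2 fold change of 1.80. For both, null replicate 3 was the nearest to the wild type, and neither passed the threshold. On the lower side, Khsrp, a binder of AU-rich RNA, had 2449, 1223 and 2329 normalized counts in Mul1(+/+) and 1148, 507 and 815 in Mul1(−/−), a log2 fold change of −1.29. Ptbp1, a repressor of exons, had 5199, 3164 and 3774 in Mul1(+/+) and 2084, 1315 and 1961 in Mul1(−/−), a log2 fold change of −1.18. Patl1, given above, came next, and for all 3 wild-type replicate 2 was the nearest to the null libraries without overlap.

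By group, 7 of 27 genes listed as U1, U5, tri-snRNP and minor snRNP proteins were in the table and 7 were higher in mean. They were Luc7l2, Luc7l3, Snrnp27, Ppih, Snrnp25, Zcrb1 and Naa38. Naa38 (log2 fold change 1.37) is not an snRNP protein, although it stays in the counts of the 29. Also higher in mean were 4 of 4 exon junction and SR-like genes, and 3 of 3 SR protein kinases. Of the 8 other splicing regulators 6 were higher and 2 lower. The groups did not overlap for 23 of the 29 (79.3%), under the 90.3% of the table. The 6 exceptions, named after their values were seen, were Luc7l2, Luc7l3, Rbm39, Rbm25, Srek1 and Mbnl1, and in each null replicates 1 and 2 were high while replicate 3 lay at the wild-type level, as in Hnrnph1. Luc7l2, a U1-associated protein, had 3338, 2774 and 2657 in Mul1(+/+) and 13374, 9695 and 2427 in Mul1(−/−).

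**Figure D5:**
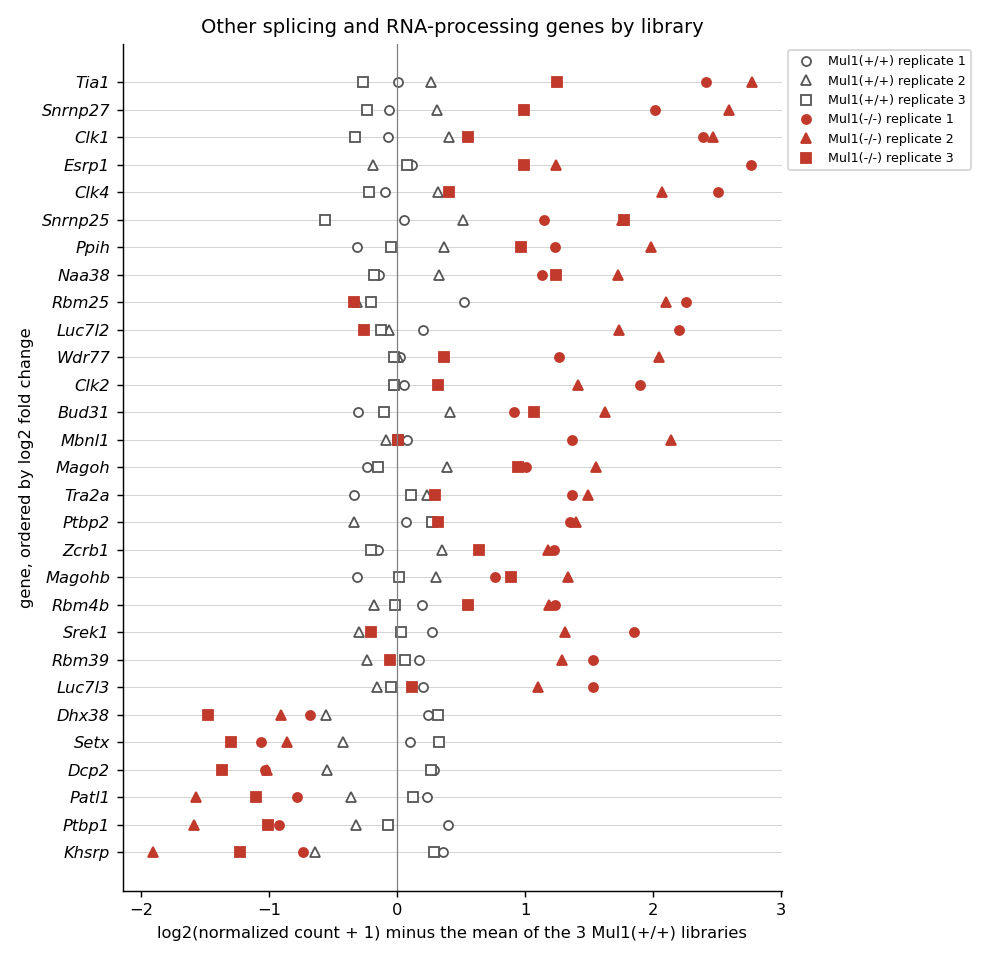
The 29 other splicing and RNA-processing genes of the table, 1 per row, with the same symbols and horizontal axis as the plot of the 25 factors by library. The filled squares, null replicate 3, lie among or beside the open wild-type symbols for Rbm25, Luc7l2, Mbnl1, Srek1, Rbm39 and Luc7l3, while filled circles and triangles lie well to the right.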

How the data were processed

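Liver mRNA of 3 Mul1(+/+) and 3 Mul1(−/−) mice on HFD was compared. The authors had libraries made, sequenced and tested with DESeq2 at GENEWIZ; aligner, counter, genome build and strand setting are not given in the sources used here. The deposited library columns were recorded as a score, since the authors wrote them with separator commas: each holds read counts over a single scaling factor of the authors, and 100% of values under 10000 were whole multiples (within 0.1 reads) of the value of 1 read, 0.817 to 1.46. The 119 dashes were read as 0. The authors' own fold changes and p-values were not used.

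Values plus 1 were log2 transformed without a filter and fitted on genotype alone with limma 3.58.1 (R 4.3.3), with Benjamini-Hochberg adjustment across all 3542 genes. The limits (adjusted p under 0.01, log2 fold change beyond 1 in size) follow the study's methods. The fit was also run on simulated data in which most genes were unchanged, unlike the genes of this table. The labels do not tie replicate numbers to shared litters or batches. The p-values set the genotype difference against the spread between these libraries, in genes chosen on the same comparison. Figures were drawn with matplotlib 3.10.9, and other steps used Python 3.11.15 with pandas 2.3.3, numpy 2.4.6 and scipy 1.17.1.

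Gene types, lengths and overlaps are from GENCODE M21 on GRCm38 (3531 identifiers matched, 11 not), and promoters from RefSeq. Members and gene lists were chosen with earlier results of these data known. Values in every library are given for all members of prefixes with 3 or fewer, the 3 with the largest absolute log2 fold change of each larger prefix, those past the threshold and those against the majority of their prefix, and for the 3 largest rises and falls among the other splicing genes. Luc7l2, Dcp2, Malat1, Neat1 and the promoters shown were chosen after values were seen. Alternatives were other limits, pseudocounts, filters and scalings, limma-trend, leaving out each library, and blocking on the replicate number.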

Additional observations from a re-analysis of the deposited data

How the results depend on the processing

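No alternative reversed the direction of any of the 25 factors (0 of the values computed), and 16 were higher in mean in every setting. The fit as reported called 2 factors higher and 0 lower (591 and 263 of all genes in the table, and likewise in brackets below). An adjusted p limit of 0.05 gave 13 higher and 9 lower (1877 and 1503), a pseudocount of 5 gave 5 and 3 (832 and 567), a mean of at least 50 gave 7 and 4 (629 and 620 of 2837), and limma-trend gave 9 and 5 (964 and 905). Rescaling by the table total gave 2 and 4 (619 and 724), and rescaling by the median ratio 1 and 6 (236 and 1031), with the median log2 fold change of the factors at 0.44 in place of 1.10. A pseudocount of 0.5 and the total without mitochondrial genes gave 2 and 3 higher and 0 lower (467 and 172, and 709 and 171). Leaving out single libraries, the higher calls ranged from 0 to 12 and the lower calls from 0 to 4, and the median log2 fold change from 0.97 to 1.32. Without Mul1(−/−) replicate 3 there were 12 and 4 calls (1595 and 1078), and without Mul1(−/−) replicate 1 there were 2 and 0 (440 and 191). Without any 1 of the other libraries there were 0 and 0 (9 to 31 and 1 to 15). The cause was not tested.

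With the replicate number as a replicate block, 0 factors and 0 genes of the table were called higher or lower (2 factors without it, and 22 with an unadjusted p under 0.05 under it), and Snrpg and Lsm7 both had a limma adjusted p of 0.0159. Same-numbered libraries deviated together with r = 0.022, 0.352 and 0.054 for numbers 1 to 3. The value for number 2 was the largest of all pairs. Number 2 libraries paired with other numbers had r from −0.200 to −0.126. Mul1(+/+) replicates 1 and 3 deviated more with null replicates 3 and 1 (0.132 and 0.114) than with their own number. What same-numbered libraries share was not tested. The planned edgeR test on recovered reads was not run, because the columns were not recorded as counts. Depth limits U2af1l4 most, at 16 reads in its lowest library.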

Other observations

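The Snrp and Lsm genes that were in the table leave the rings incomplete: 3 of the 7 Sm ring proteins and 3 of the 7 nuclear Lsm ring proteins were not among its genes and were not analysed here. Of the chaperones and assembly factors that place Sm proteins on small nuclear RNA, 1 of 18 listed genes was in the table, Wdr77, a subunit of the methylosome that modifies Sm proteins. It had 576, 570 and 559 normalized counts in Mul1(+/+) and 1366, 2350 and 732 in Mul1(−/−), with null replicate 2 the highest and a log2 fold change of 1.22 that did not pass the threshold.

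The exon junction gene Magoh had a log2 fold change of 1.17 and its relative Magohb was also higher in mean, with null replicate 2 the highest for both, as for most Snrp and Lsm genes. The SR protein kinases Clk2 and Clk4 instead had null replicate 1 highest and replicate 3 nearest to the wild type, with 1448, 1032 and 484 normalized counts for Clk2 and 4591, 3380 and 1068 for Clk4, against 401, 380 and 381 and 753, 1005 and 692 in Mul1(+/+). Clk1, whose values are given above, had null replicate 2 highest, with replicate 3 again nearest to the wild type. Clk1, Clk2 and Clk4 were each higher in mean without passing the threshold. These genes were chosen after their values were seen, and no test was made of the difference in order.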
